A study of Mus musculus with 12 samples.

Results

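Transcript levels of 38 genes of sterol and fatty acid metabolism were examined in mouse follicular B cells with and without the G-protein-coupled receptor GPR174, before and after a short culture. Of the 38, 37 were present in both deposited count tables, among 12837 genes that the tables shared. All 38 were chosen by symbol, with earlier results of these data known. They were described as 3 arms: 24 genes that make cholesterol or control its synthesis, 10 genes of fatty acid and glycerolipid synthesis (9 of them in both tables), and 4 genes of sterol efflux and its regulation. *Fads2*, a fatty acid desaturase, was listed only in the table for 0 h, where it ran from 0 to 0.896 CPM (counts scaled to a common library total), and it was not tested. *Msmo1* stood in the tables under its older symbol, *Sc4mol*.

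The cells were spleen follicular B cells of adult male mice, sorted as CD21/35- CD23+, and RNA was sequenced from 12 libraries with 3 in each of 4 groups. WT cells were Gpr174+/Y and KO cells were Gpr174-/Y, the KO allele carrying a tdTomato reporter in place of the receptor's coding sequence, and *Gpr174* lies on the X chromosome, so that male mice carry a single copy. Cells of each genotype were frozen directly after sorting (WT 0 h and KO 0 h) or were kept for 4 h in serum-containing complete RPMI medium with no stimulus added (WT 4 h and KO 4 h). The study used 3 mice per genotype, and whether the 0 h and the 4 h library with the same number came from the same mouse was not stated. The KO line was made in embryonic stem cells of a different strain and was then backcrossed to C57BL/6J, and the strain of the WT mice was not given in the sources used here. Other time points and genotypes were not used here.

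Cells regulate their own cholesterol supply through the SREBP transcription factors, encoded by *Srebf1* and *Srebf2*. SREBPs are held in the endoplasmic reticulum by SCAP and the INSIG proteins when sterols are abundant, and when sterols fall they travel to the Golgi, are cleaved, and raise transcription of the enzymes from acetyl-CoA to cholesterol and of fatty acid synthesis. In the opposite direction, oxysterols activate the LXR receptors, which raise the cholesterol exporters *Abca1* and *Abcg1*, as well as *Srebf1* and *Scd1*. Lymphocytes that leave rest are known to raise lipid synthesis, since growth and division need new membrane.

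Library totals ran from 6098941 to 11618787 counts. *Gpr174* itself was lower in every KO library than in every WT library of the same time, at 149 to 157 CPM in WT against 73.4 to 76.7 CPM in KO at 0 h, and at 152 to 169 CPM against 105 to 118 CPM at 4 h. The tables give 1 count for the whole gene, so reads outside the replaced coding sequence are included. The list of B cell markers, 9 of 10 of which were in the tables, summed to 6230 to 10125 CPM over the 12 libraries. T cell markers summed to 18.9 to 36.9 CPM, with up to 3 of 9 at 0 in a library, and macrophage markers to 88.2 to 99.6 CPM at 0 h, with all 15 listed, and to 34.5 to 57.4 CPM at 4 h, with 8 of the 15 listed. Erythroid markers (4 of 7 in both tables) summed to 670 to 2448 CPM, highest in KO 0 h replicate 2, and neutrophil markers to 19.5 to 117 CPM, highest in the same library. The ribosomal RNA gene *Rn45s* took 9.94 to 11.3% of the counts in WT at 0 h, against 9.23 to 10.3% in KO, and 7.78 to 11.2% in WT 4 h against 6.65 to 7.59% in KO 4 h, so that the genotypes did not overlap at 4 h. WT 4 h replicate 1 held the highest share of its group and differed most from its replicates. All levels below are CPM on library totals scaled by the trimmed mean of M-values (TMM). These are bulk samples, in which fewer cells of a type and less RNA per cell cannot be told apart.

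Directly after sorting, no member was called between genotypes at an edgeR adjusted p under 0.05, beside 0.502% of all tested genes called higher in WT and 0.485% called higher in KO. The members' log2 fold changes (WT over KO) ran from -0.69 for *Mvk*, mevalonate kinase, to 0.64 for *Tm7sf2*, a sterol reductase, with a median of 0.01. The standard error of a single gene's value had a median of 0.12 over all genes. With 1 library left out, the median ran from -0.02 to 0.04 in the sterol arm. It ran from -0.17 to 0.02 in the fatty acid arm and from -0.06 to 0.03 in the efflux arm. At an unadjusted p under 0.05 edgeR counted 3 members, and DESeq2 also called 0 members with 3 under the unadjusted level. Summed over the 24 genes, the sterol arm held 785 to 817 CPM in WT 0 h and 774 to 810 CPM in KO 0 h. One library moved this comparison: without WT 0 h replicate 1, *Abca1* was called lower in WT (log2 fold change -0.36, edgeR adjusted p of 0.00267). Proliferation genes did differ at 0 h, 8 of 14 being called higher in KO, with sums of 188 to 284 CPM in WT and 446 to 635 CPM in KO. The neutrophil genes *Camp* (-2.42 ± 0.52) and *Ltf* (-3.17 ± 0.69) were also called higher in KO, and the plasma cell gene *Sdc1* (1.64 ± 0.28) higher in WT. The other tested plasma cell genes were not called, with *Jchain* at -0.87 ± 0.28, *Prdm1* at -0.16 ± 0.29, *Xbp1* at 0.04 ± 0.07 and *Irf4* at 0.08 ± 0.05. The plasma cell list summed to 440 to 495 CPM in WT 0 h and 432 to 476 CPM in KO 0 h. Erythroid markers summed to 883 to 1344 CPM in WT 0 h and 781 to 2448 CPM in KO 0 h, with 0 of 4 called.

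After 4 h of culture all called members of the sterol arm were higher in KO, and all called members of the other arms were higher in WT. In the sterol arm 12 of 24 genes were called higher in KO and 0 higher in WT, where 5.67% of all tested genes were called higher in KO and 5.22% higher in WT. The arm's median log2 fold change (WT over KO) was -0.38, with 21 of 24 values negative, beside a median of 0.0049 over all 11123 genes tested. The fatty acid arm had 3 of 9 genes called higher in WT and 0 called higher in KO, and a median of 0.05 (0.04 to 0.09 with 1 library left out). The efflux arm had 2 of 4 called higher in WT and 0 called higher in KO, and a median of 0.28. Together 17 members were called, 12 higher in KO and 5 higher in WT. The count rested in part on single libraries and was 9 without KO 4 h replicate 2 (6 higher in KO), 11 when KO 4 h replicate 3 was left out (8 higher in KO) and likewise 11 when WT 4 h replicate 3 was (8 higher in KO).

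**Figure D1:**
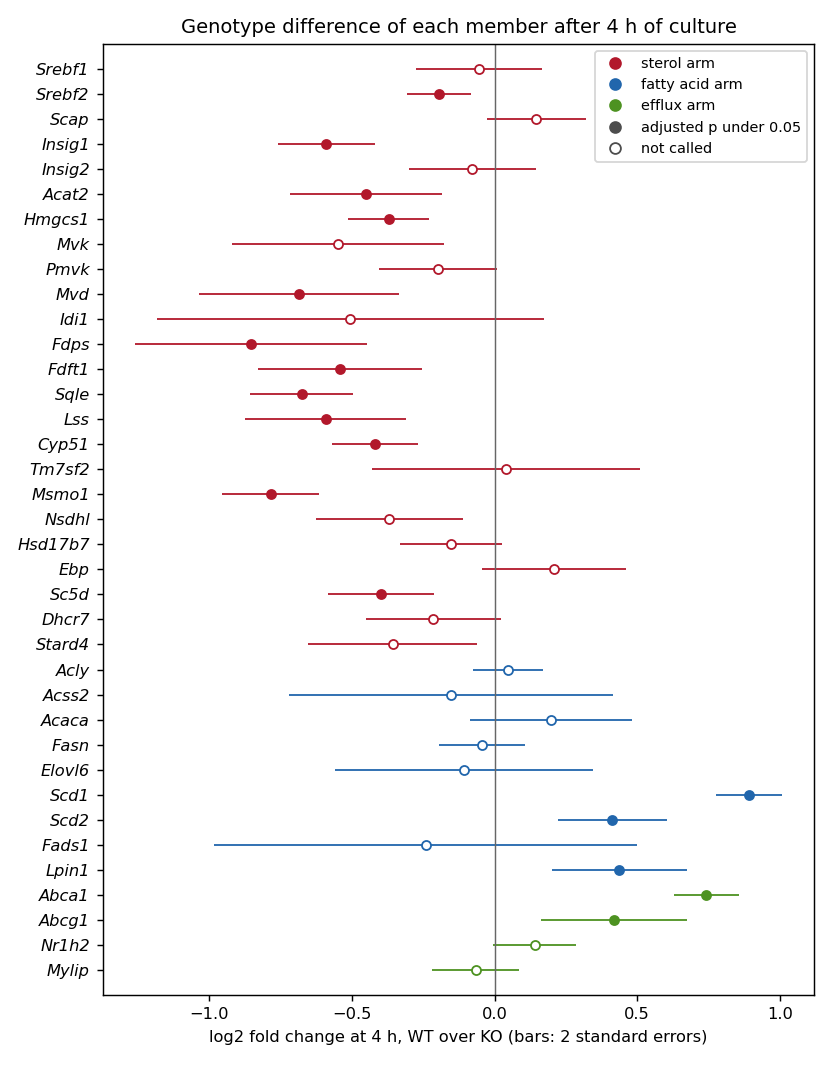
Log2 fold change of each of the 37 tested members at 4 h, WT over KO (x axis), with 1 row per gene (y axis), coloured by arm, with bars of 2 standard errors and filled points for an edgeR adjusted p under 0.05. Most sterol genes lie left of 0 (higher in KO), down to -0.85 for *Fdps*, while the filled points of the fatty acid and efflux arms lie to the right, up to 0.89 for *Scd1*.

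In the same libraries other cell markers also moved with genotype. Proliferation genes summed to 166 to 234 CPM in WT 4 h and 213 to 376 CPM in KO 4 h, and 2 of the 14 were called higher in KO. Of 9 tested B cell markers 5 were called higher in KO, the sum over the list being 6230 to 6455 CPM in WT 4 h and 7654 to 7919 CPM in KO 4 h. Macrophage markers summed to 34.5 to 52.4 CPM in WT 4 h and 41.3 to 57.4 CPM in KO 4 h, with 0 of 7 tested called. Plasma cell markers did not overlap, at 519 to 570 CPM in WT 4 h and 442 to 477 CPM in KO 4 h, and 1 of 5 tested, *Irf4*, was called higher in WT (0.23 ± 0.06). Of 4 tested T cell markers *Lck* was called higher in KO (-0.62 ± 0.15). The other tested ones, *Cd3e* (0.98 ± 0.82), *Cd3d* (0.17 ± 0.38) and *Cd28* (1.89 ± 0.76), leaned toward WT and were not called. KO 4 h replicate 2, without which the fewest members were called, stood apart from the other KO 4 h libraries in erythroid markers, at 1747 CPM against 670 and 727 CPM, and in neutrophil markers, at 111 CPM against 19.5 and 43.0 CPM. In WT 4 h these lists summed to 893 to 1259 CPM and 22.8 to 53.2 CPM, and 0 of 4 tested genes of each were called. The part of these genes and of *Rn45s* in the results on lipid genes was not tested.

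Promoter sequences were read for 30 of the 38 members, from 250 bases before to 50 bases after each RefSeq start on GRCm38.p6. RefSeq gave some members more than 1 start, so that there were 38 windows. No entry was at hand for *Abcg1*, *Fads1*, *Fdft1*, *Fdps*, *Scd1*, *Scd2*, *Sqle* or *Stard4*. The pentamer CCAAT, in either orientation (read as ATTGG on the other strand) and the letters bound by NF-Y, a factor known to act beside SREBPs, occurred in 18 of the 20 sterol arm members with a window, or 19 of their 28 windows. It occurred in 3 of 7 fatty acid members and 1 of 3 efflux members, and in 37.4% of all 32851 windows of the same length. The sterol response element, searched as TCACNCCAC on both strands, was found in *Hmgcs1* alone of the 30 members, at position -137 from the start, and in 1.24% of all windows. The palindrome TCACGTGA and the cAMP response element TGACGTCA were in no member's window and in 0.974% and 1.79% of all windows. The letters TGACG, which are contained in the cAMP response element, were in 10 of the members' 38 windows, or 26.3%, beside 20.8% of all windows, and 9 of these 10 were in the sterol arm, which held 28 of the 38.

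The windows of 4 genes that were higher in KO at 4 h and of *Abca1*, which was higher in WT, are given as examples of windows with and without the pentamer. Each is written 5′ to 3′ on the gene's own strand, and capitals mark CCAAT or ATTGG and, in *Hmgcs1*, the sterol response element. *Hmgcs1* lies at chr13:119690101-119690400 (plus strand), *Insig1* at chr5:28071162-28071461 (plus), *Cyp51* at chr5:4104648-4104947 (minus), *Msmo1* at chr8:64733529-64733828 (minus) and *Abca1* at chr4:53159846-53160145 (minus).
Hmgcs1: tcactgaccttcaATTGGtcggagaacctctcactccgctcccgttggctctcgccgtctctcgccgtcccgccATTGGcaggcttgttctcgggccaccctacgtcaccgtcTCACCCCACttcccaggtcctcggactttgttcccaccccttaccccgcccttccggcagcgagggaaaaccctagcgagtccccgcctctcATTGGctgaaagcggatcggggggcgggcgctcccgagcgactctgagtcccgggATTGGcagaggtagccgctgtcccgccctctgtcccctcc
Insig1: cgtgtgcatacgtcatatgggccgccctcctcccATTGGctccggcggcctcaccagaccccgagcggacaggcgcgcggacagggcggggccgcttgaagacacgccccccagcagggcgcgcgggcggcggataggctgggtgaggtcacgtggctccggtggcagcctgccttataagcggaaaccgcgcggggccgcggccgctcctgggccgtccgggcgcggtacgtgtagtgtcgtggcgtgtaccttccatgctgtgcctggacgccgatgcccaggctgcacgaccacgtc
Cyp51: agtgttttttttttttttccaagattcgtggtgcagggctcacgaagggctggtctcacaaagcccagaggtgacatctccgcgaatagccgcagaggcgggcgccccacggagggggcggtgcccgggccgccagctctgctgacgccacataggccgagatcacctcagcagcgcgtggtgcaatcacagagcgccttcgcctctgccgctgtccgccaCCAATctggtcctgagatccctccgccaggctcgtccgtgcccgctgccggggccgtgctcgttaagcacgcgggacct
Msmo1: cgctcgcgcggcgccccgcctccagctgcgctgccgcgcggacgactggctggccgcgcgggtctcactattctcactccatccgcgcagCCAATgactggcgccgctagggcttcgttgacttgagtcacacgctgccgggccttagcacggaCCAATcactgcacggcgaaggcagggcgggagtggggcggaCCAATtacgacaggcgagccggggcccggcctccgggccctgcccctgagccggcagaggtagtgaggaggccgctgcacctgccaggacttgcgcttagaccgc
Abca1: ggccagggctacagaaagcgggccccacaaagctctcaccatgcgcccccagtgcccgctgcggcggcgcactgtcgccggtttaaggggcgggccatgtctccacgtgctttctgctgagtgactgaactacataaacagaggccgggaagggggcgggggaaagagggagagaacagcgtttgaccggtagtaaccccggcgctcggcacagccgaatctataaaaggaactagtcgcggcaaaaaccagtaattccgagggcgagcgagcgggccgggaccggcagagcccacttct
The window of *Hmgcs1* held 4 copies of the pentamer and that of *Msmo1* held 3, *Insig1* and *Cyp51* held 1 each, and *Abca1* held none. Among sterol members with a window, only *Acat2*, called higher in KO at 4 h, and *Scap*, not called, lacked the pentamer. Uncalled sterol genes such as *Ebp*, *Tm7sf2*, *Insig2*, *Srebf1* and *Pmvk* held it too, so the examples do not tie the pentamer to the 4 h call. These are matches of letters in a fixed window and say nothing of factor binding.

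Among the 5 genes of sterol sensing, 2 were called higher in KO at 4 h. *Insig1*, which retains SCAP and SREBP in the endoplasmic reticulum and is itself an SREBP target, was counted at 46.3, 42.2 and 45.7 CPM in WT 4 h and at 67.9, 72.6 and 61.5 CPM in KO 4 h. At 0 h it had been at 27.6, 22.5 and 29.0 CPM in WT and 29.0, 32.6 and 27.6 CPM in KO. The genotypes thus overlapped at 0 h and were separate at 4 h (log2 fold change -0.59 ± 0.09, the error being a standard error here and below, edgeR adjusted p of 0.000222). *Srebf2*, the SREBP gene most closely tied to cholesterol synthesis, was at 167, 170.3 and 169.6 CPM in WT 4 h against 195, 190.1 and 195 CPM in KO 4 h. At 0 h it was at 191, 178 and 205 CPM in WT and 177, 183 and 192 CPM in KO. Its 4 h libraries did not overlap, but the difference was small (-0.19 ± 0.06, edgeR adjusted p of 0.0346), and the call was lost on leaving out any single 4 h library other than WT replicate 2 (adjusted p up to 0.12 over the alternatives).

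The other 3 sensing genes were not called. *Srebf1*, which encodes the SREBP more closely tied to fatty acid synthesis, was at 52.1, 46.9 and 50.9 CPM in WT 0 h, at 45.3, 46.6 and 47.9 in KO 0 h, 51.9, 36.1 and 44.4 in WT 4 h, and 46.3, 44.7 and 46.4 in KO 4 h. *Scap*, the sterol-sensing escort of SREBP, was at 45.5, 48.8 and 51.7 CPM in WT 0 h, at 51.8, 53.3 and 49.1 in KO 0 h, 69.0, 56.9 and 61.5 in WT 4 h, and 58.0, 58.3 and 52.7 in KO 4 h. *Insig2*, the second INSIG gene, was at 42.2, 39.2 and 40.9 CPM in WT 0 h, at 47.1, 37.6 and 39.6 in KO 0 h, 32.6, 45.0 and 37.0 in WT 4 h, and 41.5, 41.4 and 37.9 in KO 4 h. All 3 overlapped between genotypes at 4 h, with log2 fold changes of -0.05 ± 0.11, 0.15 ± 0.09 and -0.08 ± 0.11.

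All 7 genes from acetyl-CoA to farnesyl diphosphate had negative log2 fold changes at 4 h, and 4 of them were called. *Hmgcs1*, the synthase that makes HMG-CoA, rose from 60.1, 54.9 and 62.6 CPM in WT 0 h to 82.9, 79.1 and 84.2 in WT 4 h, and from 53.7, 51.1 and 61.1 CPM in KO 0 h to 107, 113 and 98.2 in KO 4 h. Every KO 4 h library lay above every WT 4 h library (log2 fold change -0.37 ± 0.07, edgeR adjusted p of 0.00264). *Mvd*, the decarboxylase that closes the mevalonate steps, was at 9.19, 10.3 and 8.75 CPM in WT 4 h and 14.7, 18.3 and 12.1 CPM in KO 4 h, against 13.5, 9.41 and 15.4 CPM in WT 0 h and 12.2, 11.4 and 8.25 CPM in KO 0 h. It overlapped between genotypes at 0 h and not at 4 h (-0.69 ± 0.18, edgeR adjusted p of 0.0192). The call was lost without WT 4 h replicate 3, KO 4 h replicate 1 or KO 4 h replicate 2 (adjusted p up to 0.131).

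*Fdps*, which makes farnesyl diphosphate, showed the largest difference of the 24 sterol genes, at 5.80, 7.34 and 7.69 CPM in WT 4 h and 12.4, 9.91 and 15.9 CPM in KO 4 h (-0.85 ± 0.20, edgeR adjusted p of 0.0125). At 0 h it was at 5.63, 1.79 and 3.93 CPM in WT and 4.67, 5.48 and 5.23 CPM in KO. These are low counts, and the call was lost without KO 4 h replicate 3 (adjusted p of 0.0844). *Acat2*, an acetyl-CoA acetyltransferase that supplies acetoacetyl-CoA, was at 16.9, 13.0 and 15.2 CPM in WT 4 h and 20.1, 21.6 and 19.8 CPM in KO 4 h, after 13.6, 20.3 and 24.9 in WT 0 h and 17.0, 14.8 and 17.3 in KO 0 h. The 4 h libraries did not overlap (-0.45 ± 0.13, edgeR adjusted p of 0.0408). This call was among the weakest, being kept in 4 of 12 alternative fits and lost without any single 4 h library other than WT replicate 1 (adjusted p up to 0.148). *Mvk* (-0.55 ± 0.19), *Pmvk* and *Idi1*, the kinases and isomerase between HMG-CoA and farnesyl diphosphate, were not called. At 0 h *Mvk* stood at -0.69 ± 0.25, also uncalled, with every WT library under every KO library.

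From the synthesis of squalene onward 6 of 11 genes were called higher in KO at 4 h. *Sqle*, squalene epoxidase and a rate-limiting enzyme of the pathway, was at 43.4, 37.3 and 47.0 CPM in WT 4 h and 68.3, 71.5 and 65.2 CPM in KO 4 h (-0.68 ± 0.09, edgeR adjusted p of 0.000106). Its 0 h libraries overlapped, at 27.8, 33.2 and 30.5 CPM in WT and 31.4, 36.9 and 34.2 CPM in KO. *Cyp51*, the lanosterol demethylase, was at 94.0, 81.7 and 90.2 CPM in WT 4 h and 114, 129 and 113 CPM in KO 4 h (-0.42 ± 0.08, edgeR adjusted p of 0.00164). It too overlapped at 0 h, with 64.4, 71.0 and 59.9 CPM in WT and 58.7, 59.6 and 71.5 CPM in KO.

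*Msmo1*, the methylsterol monooxygenase that acts after *Cyp51*, had the smallest p of the sterol arm at 4 h. It was at 30.6, 26.7 and 25.9 CPM in WT 0 h, at 22.1, 25.5 and 23.4 in KO 0 h, 30.0, 31.9 and 33.0 in WT 4 h, and 53.3, 54.7 and 55.9 in KO 4 h. At 0 h the KO libraries lay just under the WT libraries, and at 4 h well above them, and the 4 h difference was -0.79 ± 0.09 on the log2 scale (edgeR adjusted p of 1.32e-05). *Sc5d*, a sterol desaturase late in the pathway, was at 42.9, 35.2 and 39.6 CPM in WT 4 h and 50.9, 54.8 and 49.2 CPM in KO 4 h, from 39.5, 36.2 and 41.8 in WT 0 h and 38.1, 37.4 and 39.7 in KO 0 h. Its 4 h libraries did not overlap (-0.40 ± 0.09, edgeR adjusted p of 0.0111), and the call was lost without KO 4 h replicate 2 (adjusted p of 0.07).

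Of the remaining sterol genes, *Fdft1*, squalene synthase, and *Lss*, lanosterol synthase, were called higher in KO, with log2 fold changes of -0.54 ± 0.14 and -0.59 ± 0.14. *Fdft1* lost its call without WT 4 h replicate 2, KO 4 h replicate 2 or KO 4 h replicate 3, and *Lss* without WT 4 h replicate 3 or KO 4 h replicate 2 (edgeR adjusted p up to 0.148 and 0.0712). *Tm7sf2*, *Nsdhl*, *Hsd17b7*, *Ebp* and *Dhcr7*, which carry out reductions, demethylation steps and the isomerisation on the way to cholesterol, were not called. *Stard4*, a carrier of cholesterol within the cell, was at 14.7, 15.2 and 11.9 CPM in WT 0 h, at 14.1, 11.8 and 15.7 in KO 0 h, 17.9, 13.6 and 13.7 in WT 4 h, and 16.6, 20.7 and 20.2 in KO 4 h. The 4 h libraries of *Stard4* overlapped, and it was not called (-0.36 ± 0.15, edgeR adjusted p of 0.155).

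In the fatty acid arm, none of the 5 genes that supply carbon for or build and elongate fatty acids (*Acly*, *Acss2*, *Acaca*, *Fasn*, *Elovl6*) was called at 4 h, where their log2 fold changes ran from -0.15 to 0.20. *Acly*, ATP citrate lyase, was at 136, 125 and 145 CPM in WT 0 h, at 129, 135 and 123 in KO 0 h, 160.1, 143 and 150.1 in WT 4 h, and 145, 144 and 150.2 in KO 4 h. The genotypes overlapped at both times, and at 4 h the difference was 0.05 ± 0.06 (-0.08 to 0.17 at 2 standard errors).

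Stearoyl-CoA desaturases, which place the double bond of oleate, were higher in WT at 4 h. *Scd1* was at 1451, 1373 and 1396 CPM in WT 0 h, at 1394, 1297 and 1486 in KO 0 h, 1158, 1087 and 1205 in WT 4 h, and 615, 611 and 634 in KO 4 h. WT and KO overlapped at 0 h, whereas every KO 4 h library lay far under every WT 4 h library. The 4 h difference was 1.86-fold (log2 fold change 0.89 ± 0.06, edgeR adjusted p of 4.8e-08), the smallest p of all members. Per kilobase of annotated exon, *Scd1* was also the most abundant member by a wide margin, at 288 CPM per kilobase in WT 0 h and 127 in KO 4 h, where *Mylip*, the next in WT 0 h, stood at 56.8. *Scd2* lies beside it on chromosome 19 (GRCm38, 44293674 to 44306864 on the plus strand, with *Scd1* from 44394455 to 44407879 on the minus strand). It was at 102, 109 and 98.3 CPM in WT 0 h, at 119.6, 89.4 and 140.0 in KO 0 h, 60.9, 63.0 and 51.3 in WT 4 h, and 40.4, 45.0 and 45.5 in KO 4 h. The 3 KO 0 h libraries of *Scd2* were spread widely, and its 4 h libraries did not overlap between genotypes (0.41 ± 0.10, edgeR adjusted p of 0.0103). Without KO 4 h replicate 1 the adjusted p was 0.0662. Reads shared between these related genes were not separated here.

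*Lpin1*, a phosphatidate phosphatase of glycerolipid synthesis and also a known SREBP target, was at 7.65, 12.2 and 9.64 CPM in WT 0 h, at 13.6, 13.0 and 11.8 in KO 0 h, 25.2, 23.1 and 24.7 in WT 4 h, and 19.9, 17.1 and 17.0 in KO 4 h. It was higher in every 4 h library than in any 0 h library, and at 4 h higher in every WT than in every KO library (0.44 ± 0.12, edgeR adjusted p of 0.0263). The call was lost without WT 4 h replicate 1 or 3 or KO 4 h replicate 2 or 3 (adjusted p up to 0.105), and DESeq2 did not make it.

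In the efflux arm, *Abca1*, which exports cholesterol to lipid-poor apolipoprotein, had the largest difference of the 4 genes. It was at 309, 241 and 242 CPM in WT 0 h, at 311, 317 and 300.2 in KO 0 h, 431, 427 and 428 in WT 4 h, and 268, 245 and 257 in KO 4 h. WT 0 h replicate 1 lay among the KO libraries and apart from the other two WT 0 h libraries, while at 4 h the WT libraries lay close together and above every KO library. The 4 h difference was 1.67-fold (log2 fold change 0.74 ± 0.06, edgeR adjusted p of 3.03e-07). *Abcg1*, which passes cholesterol to lipoproteins, was at 96.7, 94.2 and 91.5 CPM in WT 0 h, at 91.7, 95.5 and 97.8 in KO 0 h, 47.4, 37.3 and 39.6 in WT 4 h, and 37.5, 28.7 and 26.8 in KO 4 h. Here 1 KO library reached into the WT range at 4 h, the difference only just passed the threshold (0.42 ± 0.13, edgeR adjusted p of 0.0489), and 8 of 12 alternative fits did not call it, DESeq2 among them (adjusted p up to 0.202). *Nr1h2*, the LXR beta gene (0.14 ± 0.07), for which the annotation names 1 pseudogene that could share its reads, and *Mylip*, the ubiquitin ligase that degrades lipoprotein receptors, were not called.

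**Figure D2:**
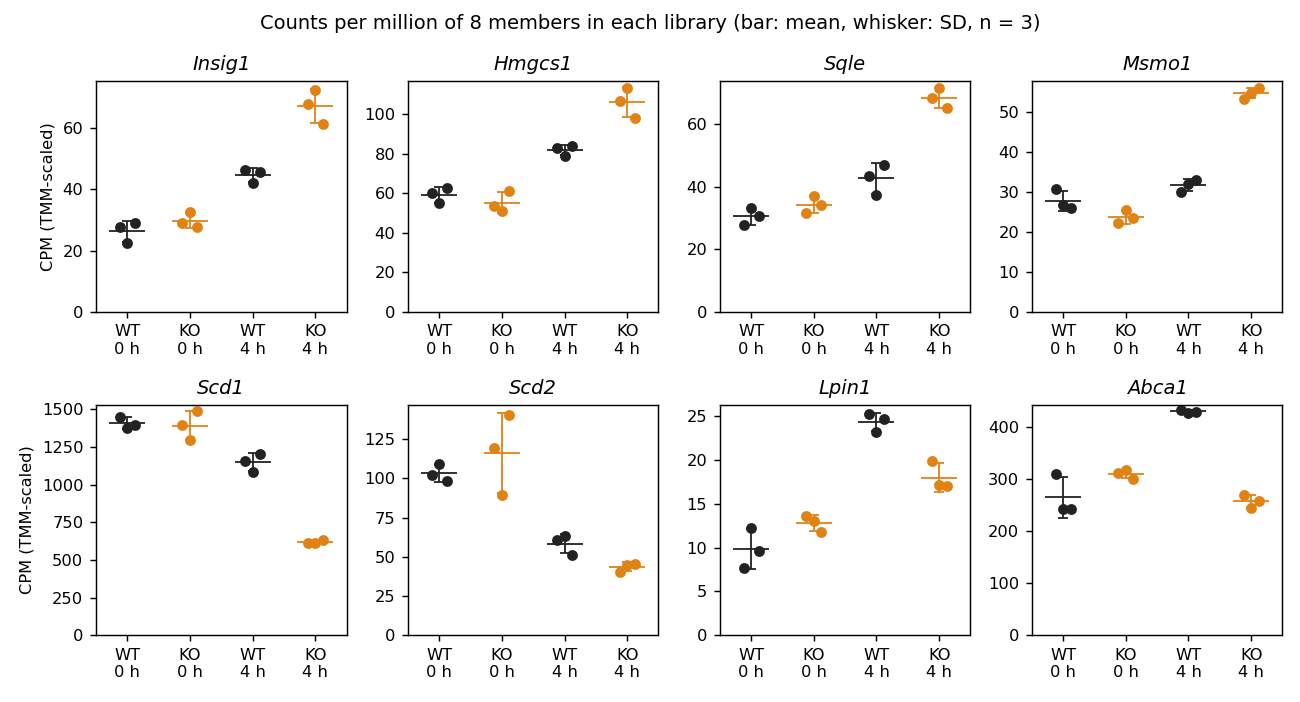
CPM (TMM-scaled, y axis) of 8 members in each of the 12 libraries by genotype and time (x axis), with points for libraries, a horizontal bar for the mean and whiskers for the SD (n = 3). *Insig1*, *Hmgcs1*, *Sqle* and *Msmo1* are highest in KO 4 h, *Scd1* and *Scd2* are lowest there, and *Lpin1* and *Abca1* are highest in WT 4 h.

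Culture raised a group of sterol genes in both genotypes. In WT, 8 of 24 sterol genes rose and 1 fell, with a median log2 fold change (4 h over 0 h) of 0.10. In KO, 12 rose and 0 fell, with a median of 0.47. With 1 library left out, 5 to 10 sterol genes rose in WT, fewest without WT 4 h replicate 3, and the median was 0.06 to 0.18, while in KO 9 to 11 rose and the median was 0.38 to 0.49. Over all members, 10 rose and 5 fell in WT, where 15.1% of all tested genes rose and 18.0% fell, and 14 rose and 4 fell in KO, where 10.3% rose and 13.0% fell. With library totals in place of TMM, which shifted the median of all genes by 0.11 in WT, the members' split was 15 and 4 in WT and 17 and 3 in KO, and in the sterol arm 10 rose and 0 fell in WT, with a median of 0.21, and 15 rose and 0 fell in KO, with a median of 0.56. The summed sterol arm went from 785 to 817 CPM to 832 to 905 CPM in WT, and from 774 to 810 CPM to 1052 to 1141 CPM in KO. The culture comparisons share their 4 h libraries with the genotype comparison at 4 h, so the same measurements enter both. Over the same hours 5 of 8 tested macrophage markers fell in each genotype, and 1 rose in KO. Of 14 proliferation genes 1 rose and 1 fell in WT, and 0 rose and 8 fell in KO. Of 9 tested B cell markers 1 rose and 5 fell in WT, and 2 rose and 6 fell in KO. The part of these genes in the culture change of the members was not tested.

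*Hmgcs1* rose by 0.47 ± 0.08 in WT and 0.94 ± 0.08 in KO, *Sqle* by 0.49 ± 0.10 and 1.00 ± 0.10, *Cyp51* by 0.45 ± 0.09 and 0.91 ± 0.09, and *Insig1* by 0.76 ± 0.10 and 1.18 ± 0.10. *Fdps* rose by 0.88 ± 0.29 in WT and 1.31 ± 0.27 in KO, and *Fdft1* by 0.49 ± 0.15 and 0.89 ± 0.15. *Mvk* rose by 0.73 ± 0.22 in WT and 0.60 ± 0.21 in KO. *Msmo1* rose in KO (1.21 ± 0.10) and was not called in WT (0.20 ± 0.10), and *Sc5d*, *Dhcr7*, *Hsd17b7* and *Stard4* were likewise called in KO alone, at 0.43 to 0.51, although of these 5 only *Msmo1* passed the test of the difference given below. *Scap* rose in WT (0.36 ± 0.08) and *Srebf2* fell there (-0.18 ± 0.06), the latter without a call when WT 0 h replicate 3 or WT 4 h replicate 1 or 3 was left out. The WT calls of *Fdft1* and *Mvk* were lost without WT 0 h replicate 3 or WT 4 h replicate 3, and that of *Fdps* without WT 0 h replicate 2 or WT 4 h replicate 2 or 3. In KO, *Dhcr7* lost its call without KO 0 h replicate 2 or KO 4 h replicate 2, *Stard4* without KO 0 h replicate 1 or 2 or KO 4 h replicate 2 or 3, and *Mvk* without any single KO library other than KO 4 h replicate 2.

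*Scd1*, *Scd2* and *Abcg1* fell in culture in both genotypes. *Scd1* fell by 0.29 on the log2 scale in WT and by 1.17 in KO, to 0.818 and 0.445 of its 0 h level. *Scd2* fell by 0.83 and 1.42, and *Abcg1* fell by 1.19 and 1.62. *Abca1* went in opposite directions, up by 0.70 ± 0.07 in WT and down to 0.829 of its level in KO (-0.27 ± 0.07, edgeR adjusted p of 0.0104, and 0.0681 at most when KO 4 h replicate 2 was left out or library totals were used). *Lpin1* rose by 1.31 ± 0.15 in WT and 0.48 ± 0.15 in KO, the KO call being lost without any single KO 0 h library or KO 4 h replicate 1. *Mylip* fell in WT (-0.34 ± 0.09), and *Acly* rose slightly in KO (0.18 ± 0.07, edgeR adjusted p of 0.0478), a call lost without any of 5 of the 6 KO libraries.

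**Figure D3:**
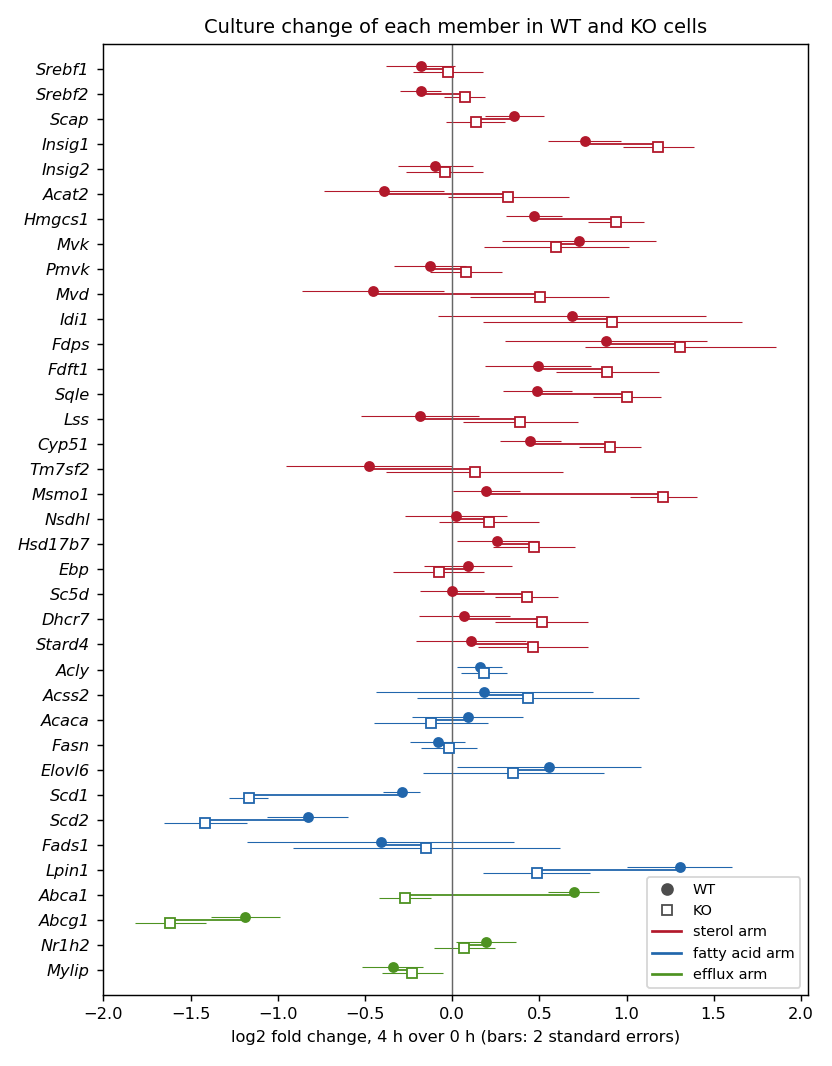
Log2 fold change of each tested member over 4 h of culture (x axis) in WT (circles) and KO (squares), with 1 row per gene (y axis), coloured by arm, with bars of 2 standard errors and a line joining the genotypes. In most sterol rows the square lies right of the circle, as for *Msmo1* (1.21 against 0.20), whereas for *Scd1*, *Scd2*, *Lpin1* and *Abca1* it lies left.

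An interaction term, the WT change minus the KO change, tested whether the change with culture differed by genotype, and it was called for 9 members. In the sterol arm *Msmo1* (-1.01 ± 0.14, edgeR adjusted p of 3.44e-05), *Mvd* (-0.96 ± 0.28), *Sqle* (-0.51 ± 0.14), *Hmgcs1* (-0.47 ± 0.11) and *Cyp51* (-0.46 ± 0.12) had the more positive change in KO. *Abca1* (0.97 ± 0.10), *Scd1* (0.88 ± 0.08), *Lpin1* (0.82 ± 0.22) and *Scd2* (0.59 ± 0.17) had the more positive change in WT. The 5 and 4 members stand beside 3.94% and 2.45% of all tested genes called in these directions. *Insig1* (-0.42 ± 0.15), *Sc5d* (-0.43 ± 0.13), *Srebf2* (-0.25 ± 0.08), *Acat2* (-0.72 ± 0.24), *Fdps* (-0.43 ± 0.40), *Fdft1* (-0.40 ± 0.21), *Lss* (-0.57 ± 0.24) and *Abcg1* (0.43 ± 0.14), all called at 4 h, did not pass the threshold here. The sterol arm's median was -0.41 with 21 of 24 values negative, beside -0.001 over all genes, the fatty acid arm's was 0.20 and the efflux arm's 0.28. The fatty acid median rested on single libraries, falling to 0.0083 when KO 4 h replicate 3 was left out and to 0.0095 when KO 0 h replicate 2 was, and reaching 0.43 when the fit had no WT 0 h replicate 1. With 1 library left out the sterol median was -0.44 to -0.30 and the efflux median 0.22 to 0.34. Among the marker lists, 5 of 9 tested B cell markers were called with the more positive change in KO, and 1 of 14 proliferation genes, *Cenpe*, in WT. Of 5 tested plasma cell markers *Sdc1* was called with the more positive change in KO, while 4 had positive values and were not called.

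The number of interaction calls depended on single libraries. *Scd1*, *Abca1* and *Msmo1* were called in all 17 alternative fits. Without KO 0 h replicate 1 only these 3 were called, without KO 4 h replicate 2 there were 4 and without WT 4 h replicate 2 there were 5. *Mvd* kept its call in 6 of 17 fits, *Scd2* in 8, *Sqle* in 10, *Cyp51* in 12, *Lpin1* in 14 and *Hmgcs1* in 16, with adjusted p-values of 0.0505 to 0.158 where the call was lost. No called value changed direction in any fit.

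Other genes of lipid metabolism were taken as a list of 56, of which 48 were tested at 4 h. Of these, 4 were called higher in WT and 3 called higher in KO. That was 8.33% and 6.25%, beside 5.22% and 5.67% of all tested genes. The list had a median log2 fold change of 0.04, and 0 were called at 0 h. *Mlxip*, a glucose-sensing transcription factor (0.34 ± 0.06), *Cyb5r3*, the reductase that passes electrons to the desaturases (0.37 ± 0.07), and *Acsl1*, a fatty acyl-CoA synthetase (0.40 ± 0.09), were higher in WT. *Lpin2*, a relative of *Lpin1* (-0.30 ± 0.07), *Cpt1a*, which admits fatty acids to mitochondria (-0.28 ± 0.07), and *Acsl4*, another acyl-CoA synthetase (-0.30 ± 0.08), were higher in KO. Some leaned the same way at 0 h without a call: *Cpt1a* (-0.43 ± 0.14), *Cyb5r3* (0.26 ± 0.07), *Lpin2* (-0.21 ± 0.07) and *Acsl4* (-0.20 ± 0.08). *Acsl1* was at 0.12 ± 0.10 and *Mlxip* at -0.04 ± 0.06 at 0 h. In culture 11 rose and 10 fell of 49 in WT (22.45% and 20.41%, beside 15.1% and 18.0% of all tested genes). In KO 5 rose and 9 fell (10.2% and 18.37%, beside 10.3% and 13.0%). *Mlxip* alone of these 49 was called in the interaction (0.37 ± 0.09, edgeR adjusted p of 0.0127), rising in WT by 0.37 ± 0.06 with 0.01 ± 0.06 in KO.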

How the data were processed

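RNA sequencing of 12 libraries (3 per genotype and time) was used. The authors aligned single-end reads to mm10 with STAR and counted them per gene with HTSeq, and the submitters' processing notes also name DESeq2. Tool versions, gene annotation and strand setting were not given in the sources used here, so reads of overlapping or antisense genes could not be separated. The authors deposited raw counts per gene, with no normalization, as a table for 0 h (13269 genes) and another for 4 h (13142 genes). No row summed to under 10 reads over its 6 libraries.

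Counts were scaled with TMM, filtered with filterByExpr and tested with edgeR 4.0.16 (glmQLFit, glmQLFTest) in R 4.3.3. P-values were Benjamini-Hochberg adjusted over all genes tested, and genes with an adjusted p under 0.05 were called. Genotype was compared within each time on 6 libraries, and culture and the interaction in 1 fit of all 12, over the shared genes. Values are log2 ratios of WT to KO, of 4 h to 0 h, and the WT minus the KO culture change, each ± its standard error. This error was derived from the edgeR test, as the size of the log2 value over the square root of its F statistic. The median standard error over genes was 0.117 for genotype at 0 h, 0.111 for genotype at 4 h and 0.167 for the interaction. Chi-square per degree of freedom between replicates was 1.94 to 9.3, highest between WT 4 h replicate 1 and its replicates (7.81 and 9.3), so no pair was taken for 1 library and all were kept. Groups of 3 against 3 cannot give a permutation p under 0.1, so p-values rest on the count model. The same fits were also run on counts simulated from their own fitted dispersions, with independent libraries. This checks the model under its own assumptions only, and not pairing or outlying libraries.

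The 38 members, their arms and roles, the list of other lipid genes and the marker lists were chosen with earlier results of these data known. Levels in every library are given for the sterol sensing genes and, in each other role, for up to 4 members called at 4 h or in the interaction, taken by p at 4 h, or for 1 member where a role had none. *Fdft1* and *Lss* fell outside this rule and were named with their folds as the remaining calls of their role. At most 6 other lipid genes were named, those with the smallest p. Alternatives were RLE factors (DESeq2's size factors), library totals only, no filter, DESeq2 1.42.0, a replicate block, other libraries in the fit, and each library left out. Exon lengths came from GENCODE vM21 and promoters from RefSeq.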

Additional observations from a re-analysis of the deposited data

Results flagged for a closer look

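The change over 4 h of culture differed between WT and KO cells in 9 members by the interaction test in edgeR (WT change minus KO change, log2). It was more positive in WT for *Abca1* at 0.97 (adjusted p of 1.94e-06), *Scd1* at 0.88 (1.15e-07), *Lpin1* at 0.82 (0.0223) and *Scd2* at 0.59 (0.0367). The change was more positive in KO for *Msmo1* at -1.01 (3.44e-05), *Mvd* at -0.96 (0.048), *Sqle* at -0.51 (0.0273), *Cyp51* at -0.46 (0.0281) and *Hmgcs1* at -0.47 (0.0124). *Abca1* was the member called in opposite directions, higher after culture in all 3 WT libraries and lower in all 3 KO libraries than in any library of the same genotype at 0 h. No group had more than 3 libraries, so single libraries were not tested for standing apart from their group.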

How the results depend on the processing

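No called member changed direction in any alternative. All alternatives kept the call for 7 of 17 members at 4 h, 11 of 15 for culture in WT, 12 of 18 for culture in KO and 3 of 9 for the interaction. With each library left out in turn, the number of members called was 0 to 1 at 0 h, 9 to 15 at 4 h, 11 to 19 for culture in WT, 14 to 16 for culture in KO and 3 to 10 for the interaction. Uncalled log2 values near 0 changed sign in these fits, in 16 of 37 members at 0 h, 8 of 20 at 4 h, 6 of 22 for culture in WT, 5 of 19 for culture in KO and 8 of 28 for the interaction, none of them over 0.262 in size. Of those given above, *Srebf1* at 4 h ran from -0.181 to 0.062, *Insig2* at 4 h from -0.205 to 0.0089, and the culture change of *Stard4* in WT from -0.0235 to 0.180. The fatty acid median also changed sign, running from -0.082 to 0.0259 for culture in WT and from -0.0661 to 0.1056 in KO, as did the medians of all 3 arms at 0 h. The cause was not tested.

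Deviations from the group mean were correlated between libraries. Across time within a genotype, the same number was the best match for all WT replicates (0.132, 0.08 and 0.119). It was also the best match for KO replicates 2 and 3 (0.145 and 0.152), but not for KO replicate 1 (-0.0426). Between genotypes, same-numbered values ran from -0.0996 to 0.0726. The within-genotype values were small but mostly favoured their own number. With 3 mice per genotype and 6 libraries of each genotype, mice may well have given libraries at both times. Which libraries shared a mouse was not settled. The main fits did not pair samples. With a replicate block 0, 15, 15, 19 and 10 members were called at 0 h, at 4 h, for culture in WT, for culture in KO and for the interaction. Library totals only, which moved the median of all genes by 0.11 (WT) and 0.09 (KO) over culture, gave 0, 16, 19, 20 and 8. DESeq2 gave 0, 14, 15, 16 and 9. Fits of culture on the 6 libraries of a genotype called 13 in WT and 23 in KO. *Fads1*, *Idi1* and *Acss2* had the largest standard errors at 4 h, at 0.37, 0.34 and 0.28.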
